A study of Mus musculus with 12 samples.

Results

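The regions described here are alternative 3′ splice sites that lie 4 to 50 nt upstream of the reference site of the same exon, in polyadenylated RNA of N2A cells, a mouse neuroblastoma line. A member is any such site with at least 10 reads, for and against its use, in all 12 libraries, and 9630 sites met this of 12823 listed at these distances and of 401633 splicing events in the whole table. They belonged to 8840 exons or other events in 4761 genes, and 7319 of them were the only alternative to the reference site. In each of the 9616 members whose reference site could be read, the site lay upstream of it by the listed distance. Percent spliced in (PSI) is therefore the share of reads that use the upstream site and make the exon longer. The other 2311 members lay in events of 3 or more sites, where a change in PSI can also come from a further site. Of the sites described below, those of Gdi2, Lin9, Herc1 (49 nt), Hnrnpc, Krit1, Skiv2l, Slc39a13 and Dock9 are of this kind.

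In both lines a Puf60 cDNA with a 3xFlag tag, resistant to the siRNA and switched on by doxycycline, had been integrated by Flp recombinase (Flp-In) with the rtTA3 transactivator. The cDNA held exon 5 of Puf60 in the pEx5 line and lacked it in the mEx5 line, and the endogenous Puf60 gene was present in both. In each line the induction group received Puf60 siRNA and doxycycline (2 µg/ml for 24 h), the knockdown group Puf60 siRNA alone, and the control group a non-targeting siRNA, each siRNA at 15 nM with harvest at 48 h. Each of the 6 groups held 2 libraries, A and B. Doxycycline was never combined with the non-targeting siRNA, so the drug and the cDNA cannot be told apart, and the descriptions of the doxycycline libraries call them uninduced, against their treatment field, which was used. The labels call the libraries biological duplicates without saying whether they came from separate cultures, and the p-values therefore rest on the spread between these samples alone, which may be technical.

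A 3′ splice site is an AG at the end of an intron, preceded by a tract rich in pyrimidines and a branch point. U2AF binds the tract and the AG, SF1 the branch point, and U2 snRNP replaces SF1 with the help of the SF3a and SF3b complexes. PUF60 is a relative of the large U2AF subunit that binds uridine-rich tracts and works with U2AF at this step. Where AGs lie close together, they can share a branch point and part of the tract, and the exon gains or loses the bases between them.

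The sequences of sites that were used less on knockdown show the bases gained by the longer exon, in capitals and ending in the AG of the reference site. The lower-case letters before them are the end of the upstream exon, as joined in the mRNA, and those after them the start of the shorter exon. They were read from GENCODE M21 transcripts (GRCm38) whose intron and exon lengths matched the deposited event. All were within coding sequence.
Celf1, 12 nt, chr2:91006620-91006631, plus strand: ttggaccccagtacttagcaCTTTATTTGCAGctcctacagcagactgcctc
Tgfbr1, 12 nt, chr4:47393247-47393258, plus strand: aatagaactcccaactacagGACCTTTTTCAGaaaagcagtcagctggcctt
AI848100 (GENCODE symbol Suco), 12 nt, chr1:161852936-161852947, minus strand: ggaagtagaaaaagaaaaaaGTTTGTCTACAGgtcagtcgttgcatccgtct
Usp9x, 15 nt, chrX:13116609-13116623, plus strand: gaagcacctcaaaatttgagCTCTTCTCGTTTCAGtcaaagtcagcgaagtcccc
Ehmt1, 21 nt, chr2:24863909-24863929, minus strand: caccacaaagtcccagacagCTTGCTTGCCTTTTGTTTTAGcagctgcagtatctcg

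The sequences of 3 of the matched sites that were used more on knockdown are shown next, with the same use of capitals. The falls and rises shown are examples. Sequences read but not shown include falls at Wwp1 (16 nt, 43.8% pyrimidines), Slc35b1 (25 nt, 60%), Herc1 (24 nt, 70.8%) and Neo1 (48 nt, 60.4%). They also include rises at Herc1 (49 nt, 63.3%) and Ablim1 (6 nt, 33.3%). The examples therefore cannot show whether falls and rises differ in pyrimidine content.
Elf2, 36 nt, chr3:51265007-51265042, minus strand: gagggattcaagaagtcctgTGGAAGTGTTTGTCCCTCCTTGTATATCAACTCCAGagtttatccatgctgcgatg
Birc6, 42 nt, chr17:74594322-74594363, plus strand: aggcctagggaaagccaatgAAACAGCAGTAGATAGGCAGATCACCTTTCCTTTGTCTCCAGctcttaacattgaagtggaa
Arv1, 40 nt, chr8:124728329-124728368, plus strand: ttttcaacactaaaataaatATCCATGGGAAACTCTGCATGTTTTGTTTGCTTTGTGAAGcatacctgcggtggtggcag
Of the 9630 members, 5594 were matched in this way, and 99.8% of the matched stretches ended in AG. The assembly of the deposited coordinates is not stated in the sources used here, and only 181 of the 9630 deposited site positions fell on a GRCm38 exon boundary, so no coordinates of the deposited table are printed.

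Most members had little choice to show. The mean PSI over libraries was above 95 in 51.41% of members and under 5 in 35.42%. The remaining 1268 sites (13.17%), in 1169 events and 1046 genes, had a mean PSI of 5 to 95 and entered the test with every other event of that range, 22770 in all. Among them, 196 sites shared their event with another tested site and are not independent. The distance was a multiple of 3, which keeps the reading frame, in 42.9% of tested members and in 36.82% of all members. Reads over the members numbered 3720909 to 7016384 per library, with a median of 88 to 152.5 reads per tested member and library.

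The targeted gene was checked first. In the authors' deposited table Puf60 stood at 246.09 rpkm in induction, 22.05 in knockdown and 107.44 in control groups of the pEx5 line, and at 202.07, 25.16 and 103.47 rpkm in the same groups of the mEx5 line. Of 15 neuroblastoma and neural marker genes, 12 stood at 1 rpkm or more in all 6 groups, against 2 of 8 glial, 0 of 6 fibroblast and 0 of 5 blood markers. Olig1, Olig2, Mog and Sox10 were listed at 0.

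Knockdown against control asked which of these site choices depend on Puf60, and it moved them in both directions. Over both lines, 62 of the 1268 tested sites were used more and 84 less on knockdown (limma on read-weighted logits, adjusted p under 0.05 and a difference of at least 10 points). These 146 sites are 11.5% of those tested, and the background over all 22770 events was 17.5%, with 5.21% called higher and 12.3% called lower. Among members 4.89% were called higher and 6.62% lower, so both shares lay below the background, and their median difference was -0.304 points against -0.468 points over all events. Sites up to 3 nt from the reference were called in 2.06% of 973, and sites more than 50 nt away in 20.7% of 778. At the edges of the range, 6 sites rose and 10 fell of 923 at 3 nt, 1 and 2 of 155 at 4 nt, 0 and 1 of 10 at 50 nt, and 1 and 0 of 14 at 51 nt. The authors' own calls, which cover 2-site events, marked 198 of 7315 members (2.71%) on pEx5 knockdown and 142 of 7314 (1.94%) on mEx5 knockdown, against 3.63% and 3.03% of all events in the authors' deposited table.

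At 10 to 19 nt nearly all calls were falls, at a share near that of falls among all events, while rises were almost missing. Of 414 sites 4 to 9 nt apart, 8 were used more and 5 less on knockdown, but 4 were used more without mEx5 control library B, 5 without pEx5 control library B, pEx5 knockdown library B or mEx5 knockdown library A, and 9 were used less without pEx5 knockdown library B. Of 222 sites 10 to 19 nt apart, 1 was used more (an 18 nt site of Glyr1, 14.7 points) and 26 less, with a median difference of -2.37 points over all 222. Of 632 sites 20 to 50 nt apart, 53 were used more and 53 less, with a median of 0.161 points. The shares called higher and lower were 1.93% and 1.21% at 4 to 9 nt, 0.45% and 11.7% at 10 to 19 nt, and 8.39% each at 20 to 50 nt, against 5.21% and 12.3% of all events. Differences of any size were negative at 149 and positive at 73 of the 222 sites in the middle class. Whether the classes differ was not tested, since the sites share events, genes and libraries.

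**Figure D1:**
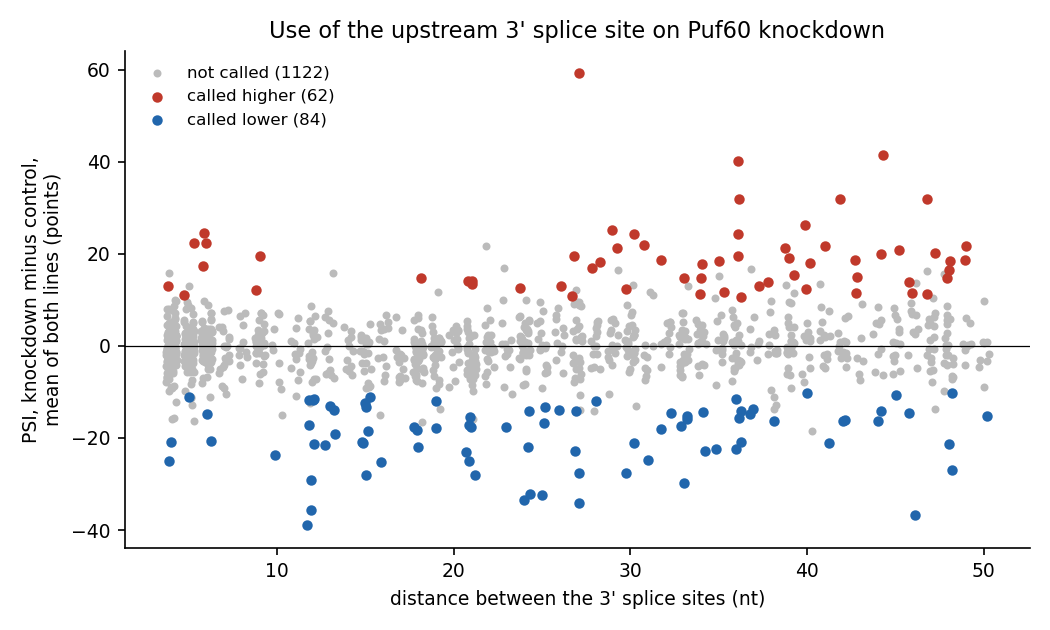
Each point is one of 1268 tested 3′ splice sites: the horizontal axis gives its distance from the reference site in nt (with a small random shift to separate points), the vertical axis its PSI in knockdown minus control in points, averaged over both lines. The 62 sites called higher (red) lie mostly beyond 20 nt, and between 10 and 19 nt there are 26 called lower (blue) and 1 called higher.

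Finer classes were chosen after the values were seen, and a change of direction with distance was not tested. Of all events 5.21% were called higher and 12.3% lower. At 10 to 14 nt 0 sites rose and 13 fell of 84, at 15 to 19 nt 1 rose and 13 fell of 138, and at 20 to 24 nt 4 rose and 11 fell of 136. At 25 to 29 nt 8 rose and 9 fell of 104, and at 30 to 34 nt 8 rose and 11 fell of 115. Beyond that the rises outnumbered the falls, with 12 and 9 of 110 at 35 to 39 nt, 10 and 6 of 69 at 40 to 44 nt, and 11 and 7 of 98 at 45 to 50 nt.

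**Figure D2:**
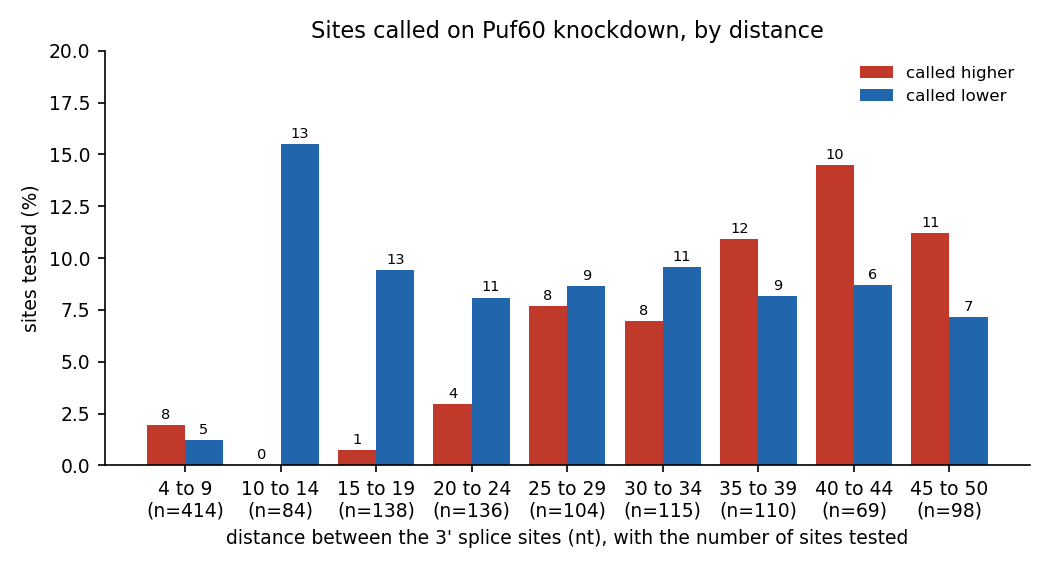
Bars give the percent of tested sites in each class of distance (horizontal axis, nt) that were called higher (red) or lower (blue) on knockdown in both lines together, with the number of sites above each bar. The share called lower is highest at 10 to 14 nt (15.5%), where 0 sites were called higher, and the share called higher is highest at 40 to 44 nt (14.5%).

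A site that is almost always or almost never used in control cells can be called in 1 direction only, so the classes were also counted by their PSI in controls. Among sites with a control PSI of 20 to 80, which can move either way, 1 rose and 16 fell of 83 at 10 to 19 nt, 23 rose and 31 fell of 199 at 20 to 50 nt, and 6 rose and 2 fell of 126 at 4 to 9 nt. Of all 408 tested members in that range 7.35% rose and 12% fell. Shares over all events of the same control PSI were not counted, so these counts lack that background. Among sites under 20 in controls, 27 rose and 1 fell of 218 at 20 to 50 nt, while 0 rose and 1 fell of 76 at 10 to 19 nt. Among sites over 80, 3 rose and 21 fell of 215 at 20 to 50 nt, and 0 rose and 9 fell of 63 at 10 to 19 nt. The test required a mean PSI of 5 to 95 over all 12 libraries. A site under 5 in controls therefore entered only through higher values in other groups, and a site over 95 only through lower ones. The directions among sites under 20 and over 80 are thus in part given by this limit. In 2-site events alone, 1 rose and 20 fell of 147 at 10 to 19 nt, and 42 rose and 36 fell of 368 at 20 to 50 nt.

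Among distances that keep the reading frame, 29 sites rose and 51 fell of 544, and among the others 33 rose and 33 fell of 724. At 10 to 19 nt the falls numbered 18 of 107 in-frame sites and 8 of 115 others. The bases between the sites could be read for 927 tested members. Their median pyrimidine content was 53.6% over all 927, 58.2% in the 36 matched sites called higher and 61.1% in the 68 called lower. At 10 to 19 nt it was 62.8% over 160 tested sites and 66.7% in the 21 called lower, and at 20 to 50 nt 58.6% over 445 tested sites, 60% in the 29 called higher and 60.9% in the 45 called lower. At 4 to 9 nt it was 33.3% over 322 tested sites. The parts of distance and pyrimidine content in the result were not tested. Of the 68 matched sites called lower 82.4% were within coding sequence, of the 36 called higher 63.9%, and of all 927 matched 73.2%.

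The largest fall was at the 12 nt site of Celf1, an RNA-binding protein that itself regulates splicing, whose sequence is the first shown above. Its PSI was 39.2 and 38.96% in pEx5 knockdown libraries against 81.6 and 77.6% in pEx5 controls, and 44.6 and 46% in mEx5 knockdown libraries against 81.7 and 83.7% in mEx5 controls. All knockdown libraries stood below all controls, with a difference of -38.96 points (-1.78 ± 0.10 on the logit scale, SE, n = 2 per group and line; limma adjusted p = 1.18e-08, 389 to 696 reads). After induction its PSI was 80.7 and 85.6% in pEx5 and 77.4 and 81.3% in mEx5, above all knockdown libraries, and its difference from control was 0.1 points (limma adjusted p = 0.991).

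A 12 nt site of Tgfbr1, the type I receptor of TGF-β, had 19.9 and 17.9% in pEx5 knockdown against 51.1 and 58.3% in control, and 23.4 and 23.8% in mEx5 knockdown against 62.4 and 55.8% in control (-35.7 points; limma adjusted p = 4.44e-07). Its induction libraries had 46.9 and 42.8% in pEx5 and 49.1 and 53.3% in mEx5, all above knockdown. The 12 nt site of AI848100, whose GENCODE symbol is Suco, gave 42.0 and 42.2% in pEx5 knockdown against 73.1 and 70.7% in control, and 39.1 and 41.7% in mEx5 knockdown against 66.8 and 71.2% in control (-29.2 points; limma adjusted p = 1.06e-05). A 15 nt site of Usp9x, a deubiquitinase, had 28.9 and 27.6% in pEx5 knockdown against 59.6 and 57.8% in control, and 32.8 and 36.6% in mEx5 knockdown against 59.9 and 61.0% in control (-28.1 points; limma adjusted p = 7.53e-07). At each of these 3 sites the knockdown libraries stood apart from the controls in both lines. The last of the named falls at 10 to 19 nt was a 16 nt site of Wwp1, a HECT-type ubiquitin ligase, at 65.2 ± 2.1% in knockdown and 89.1 ± 4.1% in control of pEx5 and 62.5 ± 1.3% and 88.9 ± 1.6% in mEx5 (SD, n = 2 each).

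The named falls also included sites beyond 20 nt. A 21 nt site of Ehmt1, a histone H3 lysine 9 methyltransferase, had 7.87 and 11.3% in pEx5 knockdown against 39.3 and 34.5% in control, and 10.6 and 13.2% in mEx5 knockdown against 34.6 and 34.8% in control (-25.1 points; limma adjusted p = 1.11e-06). A 27 nt site of Lin9, a subunit of the DREAM cell cycle complex, fell by 34.03 points (limma adjusted p = 2.07e-05), and a 30 nt site of Acin1, which associates with the exon junction complex, by 27.6 points (limma adjusted p = 0.00247, 29 to 72 reads). A 48 nt site of Neo1, a netrin receptor of the DCC family, had 32.1 and 35.5% in pEx5 knockdown against 67.4 and 61.5% in control, and 43.2 and 40.1% in mEx5 knockdown against 66.3 and 63.7% in control (-27 points; limma adjusted p = 1.06e-06). It was the longest distance among the named falls.

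Further named falls lay 24 to 33 nt from the reference. A 24 nt site of Herc1, a giant ubiquitin ligase with exchange factor domains, had 23.5 and 18.2% in pEx5 knockdown against 58.0 and 58.2% in control, and 26.5 and 26.7% in mEx5 knockdown against 56.8 and 50.8% in control (-32.2 points; limma adjusted p = 3.03e-07). A 33 nt site of Snx13, a sorting nexin, stood at 4.52 and 0% in pEx5 knockdown against 35.05 and 30.6% in control, and at 6.08 and 4.49% in mEx5 knockdown against 38.1 and 30.8% in control (49 to 98 reads). A 25 nt site of Slc35b1, a nucleotide transporter of the endoplasmic reticulum, fell by 32.5 points (limma adjusted p = 1.82e-07). At all of these sites the knockdown and control libraries did not overlap in either line, which the choice of named sites required.

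**Figure D3:**
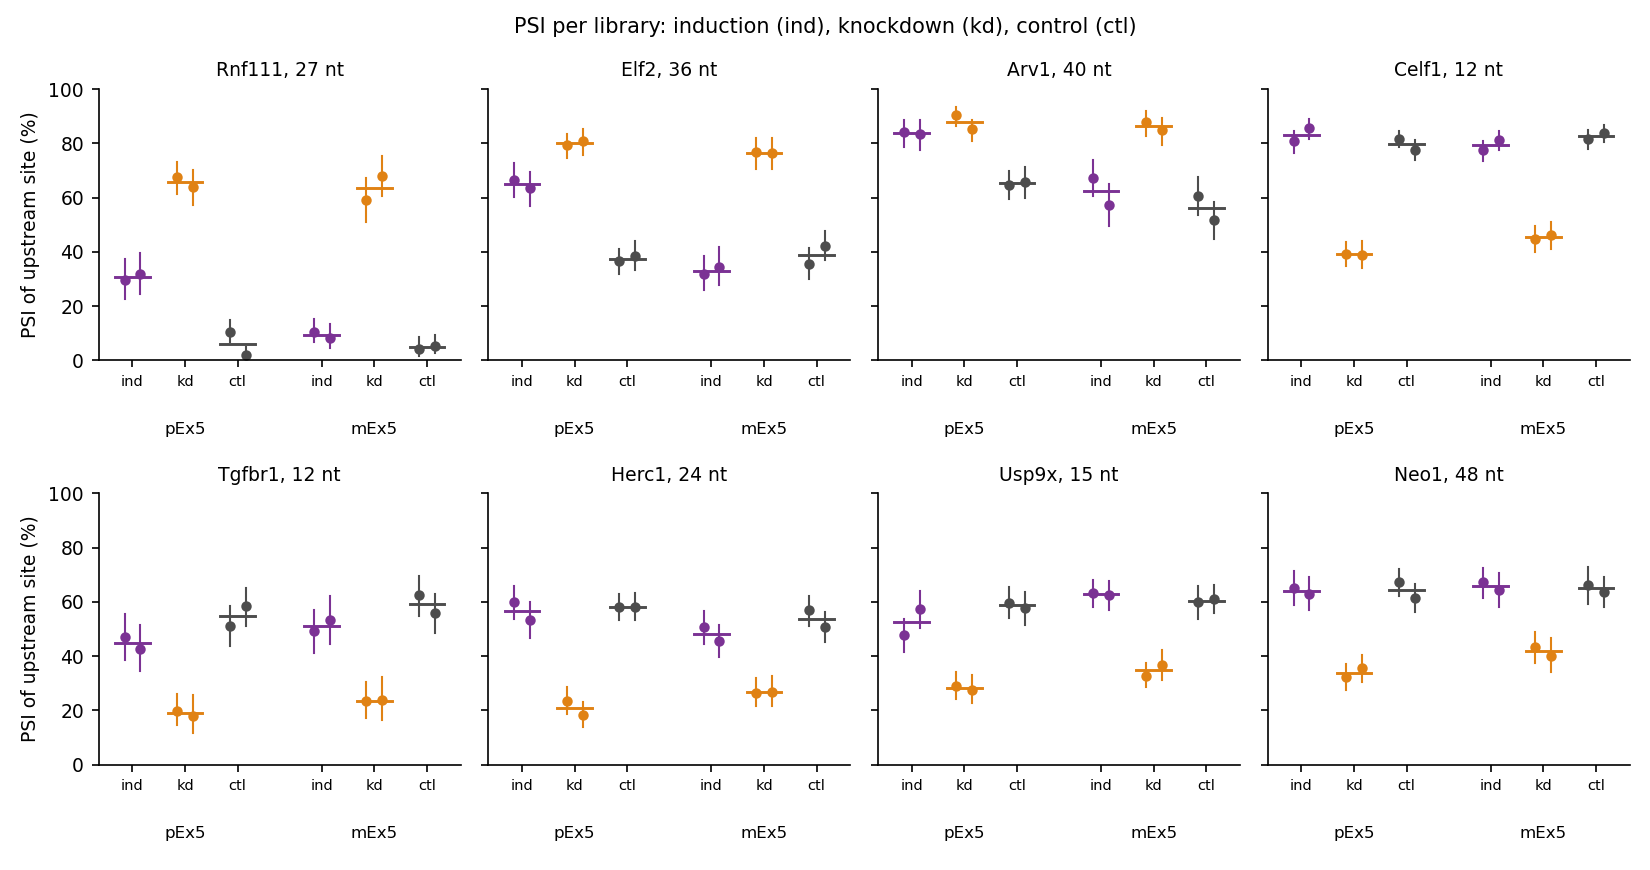
Each panel gives the PSI of 1 upstream site (vertical axis, percent) in every library of the induction (ind, purple), knockdown (kd, orange) and control (ctl, grey) groups of the pEx5 and mEx5 lines. Points are libraries with 95% Clopper-Pearson intervals, which cover counting error only, and horizontal bars are means of 2. Rnf111, Elf2 and Arv1 are higher on knockdown than in controls, and Celf1, Tgfbr1, Herc1 (24 nt), Usp9x and Neo1 are lower.

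The rises were led by Rnf111, a ubiquitin ligase of TGF-β signalling also known as Arkadia. Its 27 nt site had 67.5 and 63.8% in pEx5 knockdown against 10.3 and 1.98% in control, and 59.2 and 68.1% in mEx5 knockdown against 4.29 and 5.21% in control. The difference of 59.2 points was 3.30 ± 0.23 on the logit scale (SE, n = 2 per group and line; limma adjusted p = 8.89e-08, 152 to 255 reads). Retention of the intron that starts at the same donor rose as well, by 40.9 points. After induction the site stood at 29.6 and 31.6% in pEx5 and at 10.3 and 8.28% in mEx5.

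A 36 nt site of Elf2, an ETS family transcription factor, had 79.4 and 80.7% in pEx5 knockdown against 36.5 and 38.5% in control, and 76.6 and 76.5% in mEx5 knockdown against 35.6 and 42.1% in control (40.1 points; limma adjusted p = 1.59e-08). A 44 nt site of Cep70, a centrosomal protein, had 78.3 and 79.0% in pEx5 knockdown against 26.1 and 42.0% in control, and 72.0 and 76.5% in mEx5 knockdown against 35.2 and 36.5% in control (41.5 points; limma adjusted p = 9.26e-06). The control libraries of Cep70 in pEx5 were 15.9 points apart, and both were below all knockdown libraries. A 40 nt site of Arv1, which acts in sterol transport of the endoplasmic reticulum, rose by 26.3 points (limma adjusted p = 3.65e-06), and a 42 nt site of Birc6, a giant inhibitor of apoptosis with ubiquitin-conjugating activity, by 31.9 points (limma adjusted p = 0.000322). A 36 nt site of the transcriptional regulator Trerf1 rose by 32.0 points, and a 36 nt site of Rad54l2, a SNF2 family helicase, by 24.3 points.

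Some rises began from almost no use. A 30 nt site of Gdi2, which takes Rab GTPases off membranes, had 30.4 and 28.2% in pEx5 knockdown against 3.87 and 3.43% in control, and 29.98 and 31.1% in mEx5 knockdown against 6.67 and 8.45% in control (limma adjusted p = 6.32e-07). A 31 nt site of Mtfr1, a mitochondrial fission regulator, had 15.8 and 26.6% in pEx5 knockdown against 1.69 and 0% in control, and 30.9 and 19.1% in mEx5 knockdown against 0 and 3.17% in control, over 23 to 70 reads. Its control and induction means lay under 5% in both lines, so it entered the test through its knockdown values. A second site of Herc1, 49 nt from its reference in another event, rose by 21.8 points, so the same gene held a named rise and a named fall. The only named rise under 20 nt was a 6 nt site of Ablim1, an actin-binding LIM protein, at 24.4 points (limma adjusted p = 7.58e-05). The remaining named rise, a 47 nt site of the predicted gene Gm13154, lies in a family with near-identical copies among which reads could be split, and its value is uncertain.

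Intron retention was measured beside some of these sites. Of the 62 sites called higher, 32 had a tested retained intron that starts at the same upstream splice donor, of which 16 were called higher and 1 lower on knockdown, with a median difference of 11.4 points. Of the 84 sites called lower, 31 had one, with 6 higher and 6 lower and a median of 7.0 points. Over all tested members 390 had one, with 39 higher and 16 lower and a median of 1.25 points. Among the named rises the intron rose by 41.6 points at Cep70, 36 at Ablim1, 31.7 at Birc6, 25.2 at Trerf1 and 16.3 at Rad54l2, and it fell by 16 points at Herc1 (49 nt), while that of Arv1 stood at 0.6 points and was not called. Among the named falls it rose by 10.7 points at Slc35b1 and fell by 22.5 at Usp9x and 10.6 at Snx13. The part of intron retention in the site results was not tested.

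Many host genes were themselves lower on knockdown. By the authors' deposited table, 23 of 48 genes with an in-frame site called lower were themselves lower on knockdown in both lines (47.9%) and 2 higher, and of 29 genes with a frame-changing site called lower 12 were lower and 2 higher. Of 27 genes with an in-frame site called higher, 11 were lower and 1 higher, and of 27 with a frame-changing site called higher, 12 were lower and 8 higher. The median log2 fold change was -0.17 for the in-frame sites called lower, -0.11 for the frame-changing ones called lower, -0.16 for the in-frame ones called higher and -0.13 for the frame-changing ones called higher, against -0.059 over the 567 genes of all frame-changing tested sites. Among the 18600 genes with a measured value in the authors' deposited table, 13.7% were lower and 10.1% higher, with a median of 0.023. Of the 567 genes 26.5% were lower, and of the 436 with a tested in-frame site 32.1%, so the tested genes as a whole were lower more often than all genes measured. In bulk RNA fewer cells of a kind and less RNA per cell cannot be told apart.

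Few sites in factors of the 3′ splice site and the U2 particle could be tested. Among 47 such genes, 9 rose and 16 fell with knockdown in each line by the authors' deposited table, against 1870 and 2550 of 18600. Puf60, the target of the siRNA, is 1 of the 16 that fell. The 47 genes held 63 members in 26 genes, and 9 of these members were tested. The site of Celf1 described above was the 1 of these 9 called, against 11.5% of all tested members. The 24 nt site of Hnrnpc, an RNA-binding protein of uridine tracts, had 59.4 and 60.2% in pEx5 induction against 74.8 and 77.8% in pEx5 knockdown (-16.5 points; limma adjusted p = 0.0213), a call that did not hold without any 1 of these 4 libraries (-15.02 to -18.05 points). Over both lines induction was also called lower than knockdown (-13.0 points; limma adjusted p = 0.00685). In mEx5 alone it was not called (-9.5 points; limma adjusted p = 0.202). There induction was at 44.6 and 61.3% and knockdown at 63.25 and 61.6%. The difference of knockdown from control in both lines was 5.57 points (limma adjusted p = 0.17). Sites of Sf1 (21 nt, 0.37 points), Ptbp2 (15 nt, 0.42 points), Rbm39 (18 nt, 0.77 points) and U2af1l4 (25 nt, -5.73 points) were not called. Of 18 nonsense-mediated decay genes 2 were higher and 3 lower, and 1 of their 31 members was tested and not called.

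Neuronal and synaptic genes held 7 tested sites, of which 3 were called lower and 0 higher on knockdown, and 2 of the 3 are described. Of all tested members 6.62% were called lower, and of all events 12.3%. Of the 40 such genes measured, 3 were higher and 18 lower in the authors' deposited table, against 10.1% and 13.7% of all genes measured. A 15 nt site of Ank3, ankyrin G of the axon initial segment, fell by 20.9 points (limma adjusted p = 0.000397), and a 38 nt site of Syn1, a synaptic vesicle protein, by 16.4 points (limma adjusted p = 0.00397). At Syn1 the mEx5 knockdown libraries, at 22.7 and 30.4%, overlapped with the mEx5 controls at 28.7 and 42.4%. The 48 nt site of Mapt, which encodes tau, had 58.9 and 57.9% in pEx5 induction, 26.7 and 30.6% in pEx5 knockdown and 40.5 and 41.9% in pEx5 control. It was called for pEx5 induction against knockdown (29.8 points; limma adjusted p = 0.0187), though not without any 1 of these 4 induction and knockdown libraries (27.9 to 31.7 points). Over both lines this comparison was also called (22.0 points; limma adjusted p = 0.00372). In mEx5 alone it was not (14.2 points; limma adjusted p = 0.137), with induction at 43.1 and 55.4% and knockdown at 36.8 and 33.3%. Knockdown against control in both lines was not called at this site (-6.85 points; limma adjusted p = 0.293).

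The response to knockdown in each line can be set side by side, since these comparisons share no library. In pEx5 61 sites were called higher and 75 lower (10.7%, against a background of 15.2%, with 4.15% higher and 11.1% lower), and in mEx5 35 and 62 (7.65%, against 12.9%, with 3.44% higher and 9.47% lower). Called in both were 76 sites, which are 55.9% of the pEx5 calls and 78.4% of the mEx5 calls, and all 76 had the same sign. Of 157 sites called in either line, 146 had the same sign in both. Across the 1268 sites, which share libraries, depth and in part events, the differences in the lines correlated with r = 0.674 (Pearson) and rho = 0.533 (Spearman). The test of the difference in knockdown response between lines called no site (limma, 0 sites called, 63 at an unadjusted p under 0.05; background 0%). Nor did this test call a difference between control libraries of the lines (0 sites, 69 at an unadjusted p under 0.05; background 0.0351%, with 0.00878% higher and 0.0264% lower). In the authors' deposited table, 30 of 7314 members (0.41%) were marked between control lines and 30 of 7315 (0.41%) between knockdown lines, against 0.519% and 0.721% of all events.

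**Figure D4:**
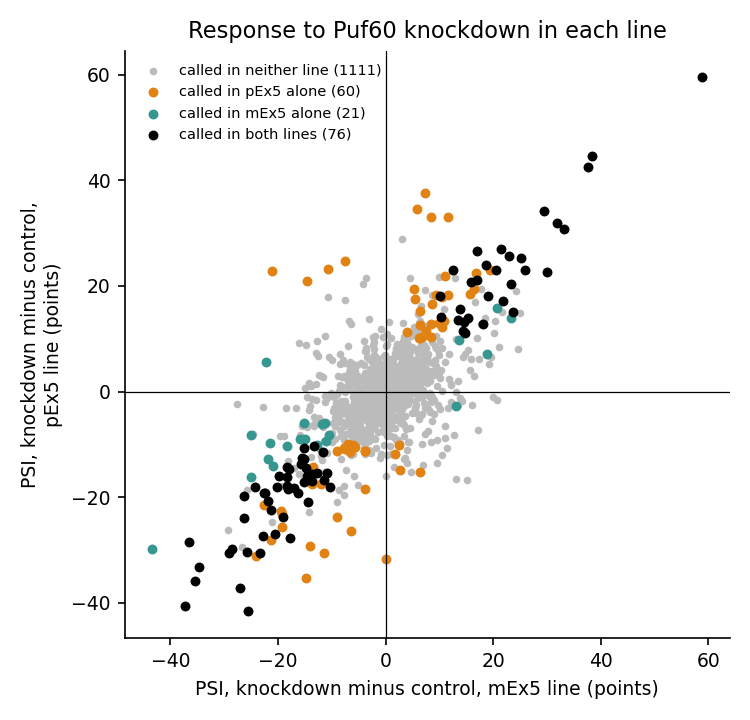
Each point is 1 of 1268 tested sites, with its PSI in knockdown minus control in the mEx5 line (horizontal axis, points) and in the pEx5 line (vertical axis, points). The 76 sites called in both lines (black) lie in the lower left and upper right quadrants.

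Induction against knockdown asked how far these sites moved with doxycycline, whose effect cannot be told apart from that of the cDNA. In both lines together 59 sites were called higher and 47 lower (8.36% of 1268, against 11.5% of all events, with 8.88% higher and 2.59% lower). In pEx5 alone 35 were higher and 16 lower (4.02%, against 7.29%, with 5.87% higher and 1.41% lower), and in mEx5 alone 51 and 39 (7.1%, against 10.4%, with 7.95% higher and 2.45% lower). The pEx5 count of 51 was 28 without pEx5 induction library B and 33 without pEx5 induction library A or pEx5 knockdown library A. By distance, 19 rose and 2 fell on induction of 222 sites 10 to 19 nt apart, 35 rose and 41 fell of 632 at 20 to 50 nt, and 5 rose and 4 fell of 414 at 4 to 9 nt. Knockdown libraries enter both this comparison and the one with controls, so opposite signs are in part given.

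Induction and control libraries can be set side by side for the sites the knockdown had moved. Among the 62 sites called higher on knockdown, the median PSI in pEx5 was 48.9% in induction, 58.8% in knockdown and 29.7% in control, and in mEx5 it was 30.3% in induction, 53.6% in knockdown and 31.5% in control. Among the 84 called lower, the medians in pEx5 were 64.2% in induction, 46% in knockdown and 70.8% in control, and in mEx5 67.8% in induction, 45.6% in knockdown and 71.5% in control. In mEx5 the medians after induction thus lay within 4 points of control for both sets, and in pEx5 the median of the sites called higher lay between knockdown and control.

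The induced lines can also be compared directly, in libraries that the knockdown difference did not use. Of the 62 sites called higher on knockdown, 52 had a higher PSI in pEx5 induction than in mEx5 induction and 9 a lower one, with a median difference of 6.66 points. Of the 84 called lower, 24 were higher and 60 lower in pEx5 induction, with a median of -2.21 points. Over all 1268 tested sites 648 were higher and 616 lower, with a median of 0.128 points. In control libraries the same 62 sites had 31 higher and 31 lower in pEx5, with a median of -0.0175 points. In knockdown libraries they had 44 higher and 17 lower, with a median of 3.65 points. These counts were made after the values were seen and carry no test. Puf60 itself was at 246.09 rpkm in pEx5 induction and 202.07 rpkm in mEx5 induction, and at 22.05 and 25.16 rpkm in the knockdowns of these lines, in the authors' deposited table, and its part in the result was not tested.

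Of the 12 named rises, 9 had both pEx5 induction libraries above both mEx5 induction libraries, 1 had them below and 2 overlapped. Elf2 had 66.5 and 63.4% in pEx5 induction and 31.7 and 34.5% in mEx5 induction, where knockdown was at 76.5 to 80.7% in all 4 libraries. Herc1 (49 nt) had 64.8 and 65.2% in pEx5 induction and 35.3 and 43.9% in mEx5 induction, Arv1 84.1 and 83.5% against 67.3 and 57.3%, and Gdi2 22.4 and 26.99% against 7.88 and 10.3%. The pEx5 and mEx5 induction libraries did not overlap at these 4 sites. The test of the difference in the induction response gave 28.4 points for Elf2 (limma adjusted p = 0.0526), 16.8 for Gdi2 (limma adjusted p = 0.0686), 18.6 for Herc1 (limma adjusted p = 0.296), 20.0 for Arv1 (limma adjusted p = 0.278) and 20.0 for Ehmt1, a named fall (limma adjusted p = 0.171), and none of these passed. Ablim1 had 72.8 and 66.3% in pEx5 induction and stood below mEx5 induction, at 74.8 and 81.5%. Mtfr1 overlapped, with 1.63 and 4.66% in pEx5 induction and 5.70 and 3.34% in mEx5 induction. Rad54l2 had 4.04 and 2.56% in pEx5 induction and 11.2 and 2.53% in mEx5 induction, and those libraries overlapped.

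The test of the induction response between lines called 2 sites, both higher in pEx5 (0.158% of members; background 0.272%, with 0.0703% higher and 0.202% lower). The authors' deposited table marked 91 of 7314 members (1.24%) between induced lines, against 1.38% of all events. The 45 nt site of Serbp1, an mRNA-binding protein, had 52.7 and 53.9% in pEx5 induction against 41.9 and 42.0% in pEx5 knockdown, and 35.1 and 35.4% in mEx5 induction against 45.2 and 45.1% in mEx5 knockdown. Induction stood above knockdown in pEx5 and below it in mEx5, a difference in response of 21.2 points (limma adjusted p = 0.00488). The call was lost with a variance floor of 0.05 and in the unweighted fit. With 3484 to 7073 reads per library its 95% Clopper-Pearson intervals were among the narrowest of the named sites, 51.2 to 54.2% and 52.4 to 55.4% in pEx5 induction and 33.9 to 36.5% and 33.8 to 37.0% in mEx5 induction. Controls stood at 35.3 and 36.5% in pEx5 and at 38.2 and 37.5% in mEx5. Its sequence is shown with the added bases in capitals, 44.4% of them pyrimidines.
Serbp1, 45 nt, chr6:67272819-67272863, plus strand: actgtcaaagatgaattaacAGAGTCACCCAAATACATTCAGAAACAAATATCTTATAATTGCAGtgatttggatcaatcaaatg
The 46 nt site of Krit1, a scaffold protein of endothelial junctions also known as CCM1, had 52.4 and 52.5% in pEx5 induction against 43.5 and 45.1% in pEx5 knockdown, and 27.9 and 29.2% in mEx5 induction against 41.3 and 45.2% in mEx5 knockdown. Its difference of 22.8 points (limma adjusted p = 0.0426) did not pass without pEx5 control library A or B or without any 1 of the 8 induction and knockdown libraries (20.9 to 24.8 points). Larger differences that did not pass were 38.6 points at a 31 nt site of Rpgr, a cilium protein (limma adjusted p = 0.469, 21 to 69 reads; 24.5 points without pEx5 induction library B), and 54.5 points at the uncertain Gm13154 site (limma adjusted p = 0.345).

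**Figure D5:**
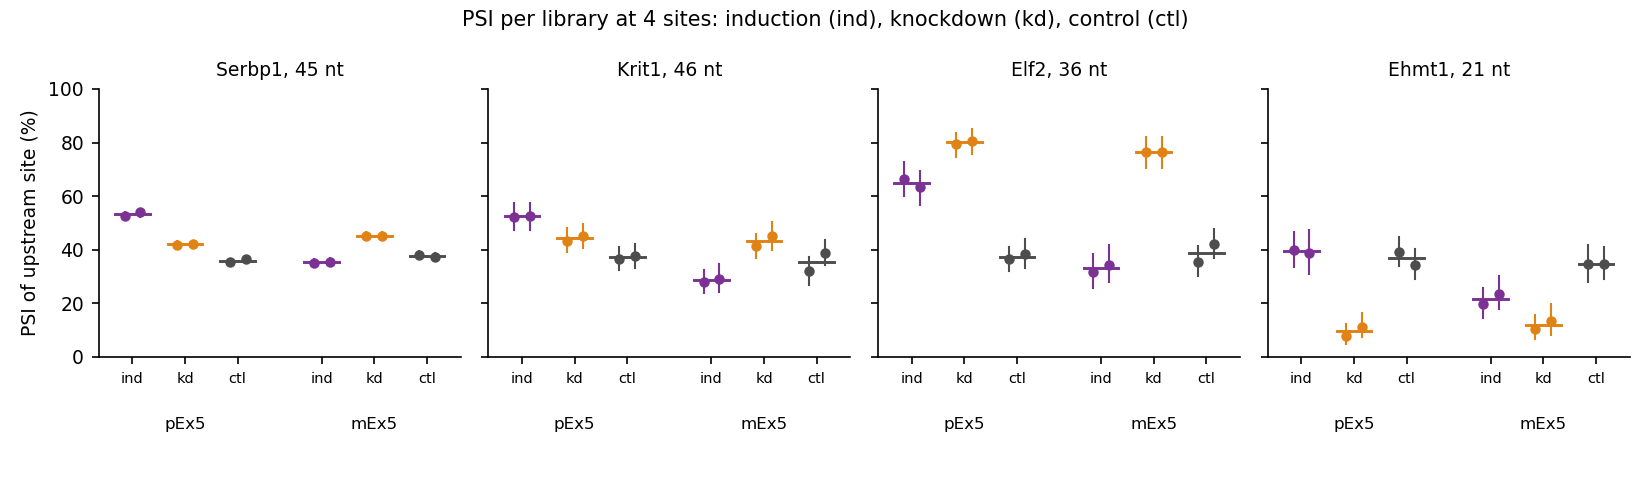
Each panel gives the PSI of 1 upstream site (vertical axis, percent) per library in induction (ind, purple), knockdown (kd, orange) and control (ctl, grey) groups of the pEx5 and mEx5 lines, with 95% Clopper-Pearson intervals for counting error and bars for the means of 2. Serbp1 and Krit1 lie above knockdown after induction in pEx5 and below it in mEx5, while Elf2 and Ehmt1 (39.8 and 38.9% in pEx5 induction, 19.7 and 23.6% in mEx5 induction) lie on the same side of knockdown in both lines, and their responses did not pass the test between lines.

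Induction against control called 12 sites higher and 8 lower in both lines together (1.58%, against 3.19% of all events, with 1.51% higher and 1.68% lower). The count of 20 was 10 without mEx5 control library A, pEx5 control library B or mEx5 induction library B, 11 without pEx5 induction library A and 12 without mEx5 control library B. The 25 nt site of Slc35b1 stayed below control, at 54.4 and 56.9% in pEx5 induction against 76.1 and 75.2% in pEx5 control, and at 59.9 and 55.8% in mEx5 induction against 73.8 and 73.7% in mEx5 control (-17.9 points; limma adjusted p = 0.000328). A 26 nt site of Skiv2l, an RNA helicase that works with the exosome, had 73.6 and 79.5% in pEx5 induction against 89.8 and 95% in control, and 70.5 and 72.9% in mEx5 induction against 88.1 and 92.7% in control (-17.3 points; limma adjusted p = 0.00883). Its knockdown libraries, at 72.8 to 81.0%, overlapped with induction. Rnf111 stayed above control by 14.5 points (limma adjusted p = 0.00967), Gdi2 by 11.3 points (limma adjusted p = 0.00263), Arv1 by 12.4 points (limma adjusted p = 0.0134) and Elf2 by 10.8 points (limma adjusted p = 0.0174), as means of both lines. By line, Elf2 averaged 64.9 ± 2.1% in induction and 37.5 ± 1.4% in control of pEx5, but 33.1 ± 2.0% in induction and 38.9 ± 4.6% in control of mEx5 (SD, n = 2 each). Gdi2 averaged 24.7% in induction and 3.6% in control of pEx5, and 9.1% and 7.6% in the same groups of mEx5. Rnf111 averaged 30.6% in induction and 6.1% in control of pEx5, and 9.3% and 4.8% in those of mEx5, and Arv1 83.8% and 65.2% in pEx5 and 62.3% and 56.1% in mEx5.

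The remaining named sites of this comparison rest on few reads. A 6 nt site of the nuclear import receptor Tnpo1 was higher by 24.3 points (limma adjusted p = 0.0492, 21 to 53 reads), a call that held in 2 of the 12 fits that leave out 1 library (20.2 to 28.4 points). A 5 nt site of Bmp1, a procollagen protease, was at 100% in all induction and knockdown libraries, against 78.8 and 46.1% in pEx5 controls and 85.4 and 100% in mEx5 controls (limma adjusted p = 0.0393, 21 to 61 reads), a call that held in 5 of the 12 fits that leave out 1 library. The difference was 22.4 points, and 14.2 points without pEx5 control library B, the lowest of the controls. Library B of the mEx5 controls was at the level of the induction libraries. Outside the controls the site was at 100%, so it met the upper limit of 95 for the mean PSI, and entered the test, through its control values. Between control lines the largest differences were at this Bmp1 site, at Slc39a13, a zinc transporter (39 nt, -22.2 points), at Lphn2, an adhesion receptor (29 nt, 21.1 points), and at Dock9, an exchange factor for Cdc42 (6 nt, 19.8 points), with adjusted p of 0.391 or more in limma. The Bmp1 difference of -30.2 points was -13.9 without pEx5 control library B and -46.6 without pEx5 control library A, and that of Lphn2 was 12.8 points without mEx5 control library A.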

How the data were processed

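Polyadenylated RNA of 12 libraries was sequenced from stranded libraries, per the labels' protocols. The deposited splicing table gives each event's PSI as a percent, with the authors' quality text holding corrected reads for and against inclusion (vast-tools format; its version and assembly are not given in the sources used here). The deposited comparison table holds group PSI as a score and the authors' PSI differences. The deposited expression table holds group rpkm, log2 fold changes and adjusted p-values from the authors, with Salmon 0.14.1, edgeR and mm10 named in the submitters' processing notes. None of these was recomputed from reads.

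Events with at least 10 reads in all 12 libraries and a mean PSI of 5 to 95 were fitted with limma 3.58.1 in R 4.3.3, on logits with a pseudocount of 0.5 reads, weights from the reads with a variance floor of 0.01, and 1 coefficient per group. Benjamini-Hochberg adjustment ran over all 22770 events in each of 10 comparisons, and a call needed an adjusted p under 0.05 and 10 points of PSI. The fit was tried on simulated data whose added spread equalled the variance floor of 0.01. That run therefore does not show how the fit performs where samples spread more widely. Intervals cover counting error only, since reads are not independent molecules. Tables were joined in Python 3.11.15 with pandas 2.3.3.

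Named sites were the 12 largest called rises and 12 largest called falls on knockdown with at least 20 reads and no overlap between knockdown and control within a line, the 4 largest called differences of induction against control, the 4 largest between lines after induction and between control lines, called ones first, and each called site in the gene lists. The values of 1 named site are not reported here. Members and lists were chosen with earlier results of these data known. The alternatives were other weights, pseudocounts, variance floors, read minimums, PSI ranges and thresholds, 2-site events, a replicate block and leaving out each library.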

Additional observations from a re-analysis of the deposited data

Results flagged for a closer look

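The response to induction went in opposite directions in the lines at 2 sites, where the test of the difference was passed and each induction library stood above knockdown in pEx5 and below it in mEx5. The difference was 21.2 points at the 45 nt site of Serbp1 and 22.85 points at the 46 nt site of Krit1. Both calls of the difference were lost with a variance floor of 0.05 and in the unweighted fit. Within lines only 1 direction was called at each site. Serbp1 was called in pEx5 (11.3 points; limma adjusted p = 0.00234). In mEx5 its -9.9 points (limma adjusted p = 0.00392) fell short of the 10 points required. Krit1 was called in mEx5 (-14.7 points; limma adjusted p = 0.00489) but not in pEx5 (8.1 points; limma adjusted p = 0.132). At the 39 nt site of Slc39a13, the knockdown libraries stood above the controls in pEx5 (50.8 and 27.3% against 14.04 and 17.6%) and below them in mEx5 (22.9 and 32.0% against 34.6 and 41.5%). The responses differed by 33.78 points, and the test of the difference did not call this site.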

How the results depend on the processing

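Unweighted logits without a PSI range gave 97 called sites on knockdown in both lines (146 in the weighted fit), 43 in pEx5 (136) and 34 in mEx5 (97). The same setting gave 38 sites for induction against knockdown in both lines (106), 5 in pEx5 (51) and 15 in mEx5 (90), 1 for induction against control (20), 0 for the induction response between lines (2) and 1 between control lines (0). A threshold of 15 points gave 95 sites on knockdown, 58 on induction and 5 for induction against control. The induction response between lines had 0 calls with a variance floor of 0.05 and 1 in 2-site events. The cause of these changes was not tested. With 1 library left out, calls ranged over 132 to 144 on knockdown in both lines, 98 to 137 in pEx5, 68 to 100 in mEx5, 91 to 106 on induction in both lines, 28 to 53 in pEx5, 61 to 95 in mEx5, 10 to 17 for induction against control and 1 to 3 for the induction response between lines. Sites called lower at 10 to 19 nt numbered 22 to 28 in those fits (26 with all libraries), 18 unweighted, 17 at 15 points and 20 in 2-site events. No named result changed direction under any alternative run. The balance of calls at 4 to 9 nt did, from 8 rises and 5 falls with all libraries to more falls than rises without pEx5 knockdown library B. Of the 41 named results tested again, 9 lost their call unweighted, 3 with the higher variance floor, 2 with a mean PSI of 1 to 99 and 1 with the replicate block (Tnpo1). Letters A and B are shared by all groups, but the deviations of same-lettered libraries correlated by -0.0152 to 0.0153 over all tested events. These unweighted values gave no sign of pairing across events as a whole, and cannot exclude it at a part of them. The replicate block gave 144 calls on knockdown, 108 on induction and 16 for induction against control. Sites with few reads, such as those of Tnpo1 and Bmp1, are limited by depth.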
